A study of Mus musculus with 6 samples.

Results

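The genes described are those whose products build the splicing machinery, steer splice choice or bind and unwind RNA, measured in airway smooth muscle cells with and without extra beta2-adrenergic receptor. They were taken by name alone, from the starts of the mouse gene symbols: Srsf, Sf3a, Sf3b, U2af, Snrp, Snrnp, Lsm, Prpf, Hnrnp, Ddx, Dhx, Rbm, Celf, Mbnl and Ptbp. The name rule uses no measured value. The name rule found 75 genes on 107 of 8734 probes. Of these, 74 had a value on all 6 arrays and are the members described below, out of 5644 genes with 1 symbol and 6807 rows of genes and unnamed probes in all. The remaining gene, the RNA helicase Ddx17, had no value on any array here.

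The study has 6 two-colour arrays, and on each of them RNA of 2AR-OE mice, which overexpress the receptor, competed with RNA of NTG (nontransgenic) mice. Both RNAs came from airway smooth muscle cells grown out of tracheal explants, kept in 20% serum and used between passages 8 and 10. Over 90% of such cells are given as smooth muscle by staining for smooth muscle actin. Arrays 1C and 2C had the dyes exchanged, with transgenic RNA in Cy3; on 1A, 1B, 2A and 2B it was in Cy5. The sources used here do not give the transgene's promoter, the strain or the ages of the mice, nor what the numbers 1 and 2, called sets below, stand for. No label ties an array to its own culture or animal, so the p-values rest on differences among arrays that may be only technical.

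Every value is a log2 ratio, with 0 for an equal level in both RNAs. It is likely transgenic over nontransgenic, since transgenic RNA is in the first channel, Cy5, on 4 of 6 arrays. Their titles, however, put the nontransgenic name first, and if the ratio runs that way every sign below turns. The columns of 1C and 2C were taken to be turned to the common direction by the authors, a step no label records. Had they been left unturned, the fitted ratios and calls below would be dye differences, and the transgenic ratios would lie in the dye term. A gene is said to have fallen or risen only where its adjusted p was under 0.05 in limma's moderated test over all 6807 rows, with a term for the dyes.

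Introns are cut out of pre-mRNA by the spliceosome, which is built from small nuclear ribonucleoproteins (snRNPs), each a short RNA wrapped in a ring of Sm or LSm proteins. U1 marks the 5′ splice site, U2 with its SF3a and SF3b complexes marks the branch point, and the tri-snRNP of U4, U6 and U5 then joins, with helicases driving each rearrangement. SR proteins mostly favour the use of nearby exons, hnRNP and PTB proteins often oppose it, and CELF and muscleblind proteins shift exon choice as muscle matures. The names Ddx, Dhx, Rbm and LSm also cover proteins of ribosome assembly, translation and RNA decay, so the group is wider than splicing.

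The promoters of the members that fell are shown because these genes moved the same way on every array, with that of Rbm4b, which had the lowest p among members above 0, for contrast. Each is the 250 bases before a start in RefSeq, build GRCm38.p6, read 5′ to 3′ on the gene's strand. Capitals mark TGACG (the core of the site bound by the cyclic AMP response factor), GGGCGG (a GC box) and CCAAT on either strand. Srsf11 has a pair of starts in the table, on the minus strand at chr3:158031749-158031998 and chr3:158036607-158036856. Ddx21 lies on the minus strand at chr10:62602299-62602548, Rbm26 on the minus strand at chr14:105177315-105177564 and Sf3b3 on the minus strand at chr8:110846804-110847053. Rbm4b lies on the plus strand at chr19:4756275-4756524.
Srsf11, first start: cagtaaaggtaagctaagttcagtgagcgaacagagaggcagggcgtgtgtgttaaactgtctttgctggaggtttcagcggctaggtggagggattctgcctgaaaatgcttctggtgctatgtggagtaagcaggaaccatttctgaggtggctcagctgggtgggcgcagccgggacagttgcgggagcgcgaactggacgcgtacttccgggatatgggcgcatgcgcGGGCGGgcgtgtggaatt
Srsf11, second start: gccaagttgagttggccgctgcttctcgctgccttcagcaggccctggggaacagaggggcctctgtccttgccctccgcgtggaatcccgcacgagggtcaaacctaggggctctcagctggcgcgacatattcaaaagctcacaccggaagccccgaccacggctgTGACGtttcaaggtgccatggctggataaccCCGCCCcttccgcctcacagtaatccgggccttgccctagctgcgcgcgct
Ddx21: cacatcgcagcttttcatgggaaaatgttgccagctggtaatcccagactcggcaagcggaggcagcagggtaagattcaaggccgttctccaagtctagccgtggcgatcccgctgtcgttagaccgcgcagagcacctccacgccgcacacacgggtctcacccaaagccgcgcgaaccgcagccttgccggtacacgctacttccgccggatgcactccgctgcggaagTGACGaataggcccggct
Rbm26: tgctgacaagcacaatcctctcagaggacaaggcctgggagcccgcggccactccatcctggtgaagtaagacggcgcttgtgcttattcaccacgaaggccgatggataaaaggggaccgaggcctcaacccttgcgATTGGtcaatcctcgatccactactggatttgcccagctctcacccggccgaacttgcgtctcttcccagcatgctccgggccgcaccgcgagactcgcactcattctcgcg
Sf3b3: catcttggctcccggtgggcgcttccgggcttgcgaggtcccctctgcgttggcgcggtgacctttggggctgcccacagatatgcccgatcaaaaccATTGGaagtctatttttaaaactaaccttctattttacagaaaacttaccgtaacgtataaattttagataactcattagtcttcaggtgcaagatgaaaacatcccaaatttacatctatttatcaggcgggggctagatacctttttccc
Rbm4b: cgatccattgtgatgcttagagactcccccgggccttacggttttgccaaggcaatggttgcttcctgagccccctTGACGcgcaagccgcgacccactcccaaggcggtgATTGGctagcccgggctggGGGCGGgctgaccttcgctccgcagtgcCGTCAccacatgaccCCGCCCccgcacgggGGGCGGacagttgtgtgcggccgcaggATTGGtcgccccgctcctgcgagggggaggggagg

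In these windows TGACG stood 18 bases before the Ddx21 start and 82 bases before the second Srsf11 start, and Rbm4b held it on both strands. The Rbm26 and Sf3b3 windows held CCAAT, read as ATTGG on the gene's strand, and neither of the other motifs. The RefSeq table had promoters for 67 of the 74 members, and Lsm12 and Ptbp3 are named only. Of the 67 genes, 28 had TGACG in at least 1 window on either strand (41.8%), against 29.9% of 4561 measured genes. Per promoter the share was 35.4% of 96 member windows, 25.3% of 5969 windows of measured genes and 17.8% of all 32851 windows. The full palindrome TGACGTCA, whose occurrences are also counted under TGACG, stood in windows of 3 members, Celf3, Ddx51 and Snrpa (4.48% of the 67), against 3.00% of measured genes. GGGCGG stood in 56.2% of member windows, 55.6% of windows of measured genes and 32.7% of all windows. CCAAT stood in 41.7%, 34.9% and 33.8% of these, and the E-box CACGTG in 10.4%, 8.04% and 6.02%. These shares describe letters in a window and no binding was measured.

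The members as a whole lay slightly below 0. Their median log2 ratio was -0.13, with a lower quartile of -0.27 and an upper one just under 0, against a median of 0.00 and quartiles of -0.16 and 0.18 over all rows. Of the 74 members, 55 were below 0 (74.3%), against 49.7% of all rows. The shift was small: 48 members lay within 0.25 of 0, and none lay beyond a 2-fold difference, which 2.26% of all rows did.

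The member median was -0.06 on array 1A, -0.12 on 1B, -0.11 on 2A, -0.10 on 2B, -0.17 on 1C and -0.11 on 2C. It was below 0 on all 6 arrays, while the median of all rows lay between -0.01 and 0.02. The SD of the 6 member medians was 0.034, so the shift was larger than its spread between arrays. That spread may be only technical and need not cover differences between cultures or mice. The number of members below 0 was 41 on 1A, 46 on 1B, 51 on 2A, 54 on 2B, 51 on 1C and 51 on 2C. Array 1C, whose ratios spread most widely over all probes (median absolute deviation 0.37, against 0.19 at the narrowest array), had the lowest member median. Without it the median of the fitted member ratios was -0.10.

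**Figure D1:**
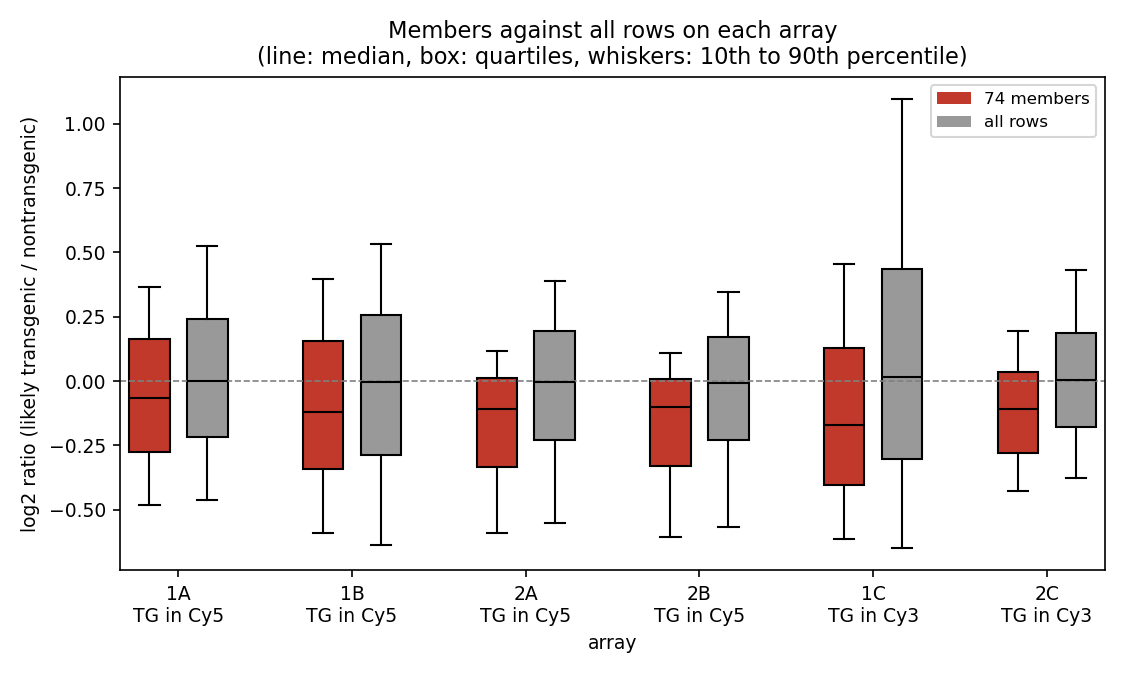
Log2 ratios of the 74 members (red) and of all rows (grey) on each of the 6 arrays; the line is the median, the box spans the quartiles and the whiskers end at percentiles 10 and 90. The member median lies below 0 on every array, from -0.17 on 1C to -0.06 on 1A.

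By the adjusted test 6 members fell and 0 rose, 8.11% in all. None of the 6 passed with the set as a random block at its estimated correlation of 0.295, and leaving out 1 array gave 0, 1 or 15 members called. Over all rows 3.09% fell and 4.03% rose, 7.11% in all, so the members' calls lie on 1 side while those of all rows lie on both. At an unadjusted p under 0.05, 17 members were lower (23.0%, against 13.6% of all rows) and 1 was higher (1.35%, against 14.1%). Counted by sign alone, 16 members were below 0 on 6 of 6 arrays (21.6%, against 8.45% of all rows), and 2 were above 0 on 6 of 6 (2.70%, against 11.1%). Another 39 members had both signs on at least 2 arrays each.

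The 6 genes that fell came from 6 of the 9 role classes: Srsf11, Lsm12, Sf3b3, Ddx21, Rbm26 and Ptbp3. Class medians ran from -0.25 for the 3 SR proteins and -0.19 for the 15 snRNP and LSm genes to 0.01 for the 5 Dhx helicases. In between lay the 5 genes of U2 and the 3′ splice site at -0.16, the 11 Ddx helicases at -0.13, the 13 Rbm genes at -0.12, the 8 Prpf genes at -0.09, the 7 hnRNP genes at -0.07 and the 7 Celf, Mbnl and Ptbp genes at -0.03. All 5 genes of U2 and the 3′ splice site and 12 of 15 snRNP and LSm genes were below 0, against 2 of 5 Dhx helicases. The classes are small, and no class was tested against another.

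**Figure D2:**
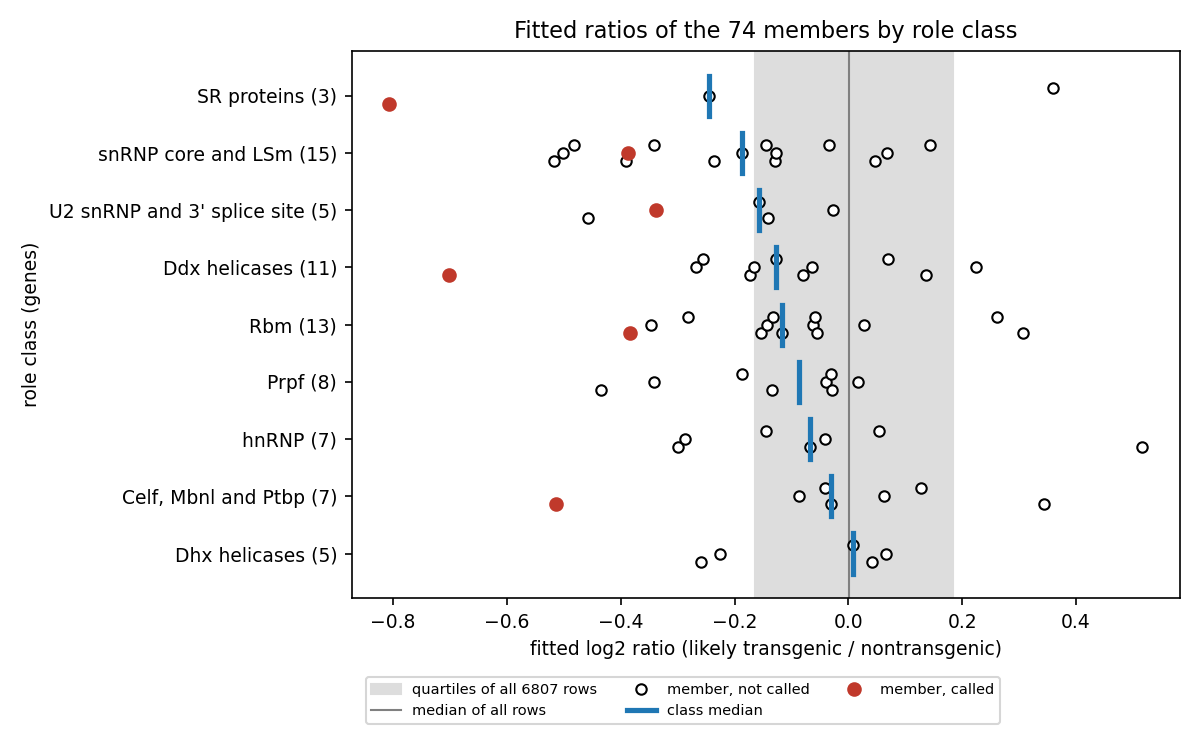
Fitted log2 ratio of each of the 74 members by role class, with the class median as a blue bar, the 6 genes past the adjusted threshold filled, and the range between the quartiles of all rows (-0.16 to 0.18) shaded. Filled points lie only below 0, and the class medians run from -0.25 to 0.01.

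Srsf11, an SR-family splicing factor, had the lowest ratio of all members. Its log2 ratio was -0.53 on 1A, -0.44 on 1B, -0.07 on 2A, -0.22 on 2B, -1.77 on 1C and -0.82 on 2C. Both arrays with transgenic RNA in Cy3 were lower than the other 4, and 2A was close to 0. The fitted ratio was -0.81 ± 0.15 (SE), a 1.75-fold lower level, with an adjusted p of 0.0300 by limma.

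Ddx21, a nucleolar RNA helicase of ribosomal RNA processing, followed. Its values were -0.16 on 1A, -0.22 on 1B, -0.59 on 2A, -0.43 on 2B, -1.46 on 1C and -0.65 on 2C. Array 1C was again the lowest, and every array was below 0. This gave a fitted ratio of -0.70 ± 0.13 (SE), 1.63-fold lower, with an adjusted p of 0.0326 by limma.

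Ptbp3, a paralogue of the polypyrimidine tract-binding protein, gave values of -0.31 on 1A, -0.46 on 1B, -0.58 on 2A, -0.60 on 2B, -0.74 on 1C and -0.34 on 2C. Array 1C was the lowest, and 1A and 2C were nearest to 0. Their fitted ratio was -0.51 ± 0.09 (SE), 1.43-fold lower, with an adjusted p of 0.0235 by limma. Its relative Ptbp1 had a fitted ratio of 0.06 and did not pass the test.

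Lsm12, a protein with an LSm domain, had the lowest p of the members. Its values were -0.32 on 1A, -0.32 on 1B, -0.34 on 2A, -0.29 on 2B, -0.58 on 1C and -0.35 on 2C. The 5 arrays other than 1C lay between -0.35 and -0.29. The fitted ratio was -0.39 ± 0.06 (SE), 1.31-fold lower, with an adjusted p of 0.0220 by limma.

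Rbm26, an RNA-binding protein with a zinc finger, had a ratio of like size. Its values were -0.31 on 1A, -0.37 on 1B, -0.28 on 2A, -0.34 on 2B, -0.63 on 1C and -0.26 on 2C. Over all arrays the fitted ratio was -0.38 ± 0.07 (SE), 1.30-fold lower, with an adjusted p of 0.0351 by limma. Array 1C stood below the others here too.

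Sf3b3, a subunit of the SF3b complex of U2, was measured by 2 probes. Their mean was -0.07 on 1A, -0.06 on 1B, -0.33 on 2A, -0.28 on 2B, -0.49 on 1C and -0.49 on 2C. Both arrays of set 1 with transgenic RNA in Cy5 were close to 0. The fitted ratio was -0.34 ± 0.07 (SE), 1.26-fold lower, with an adjusted p of 0.0454 by limma. Fitted singly, 1 probe gave -0.45 ± 0.09 (adjusted p 0.0455 by limma) and the other -0.23 ± 0.08 (adjusted p 0.128).

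The fitted ratio is the mean of the 2 dye orientations, so 1C and 2C each carry as much weight as 2 of the other arrays. Without 1 of them, the other is the only array with transgenic RNA in Cy3. The dye term then fits that array exactly, so it adds nothing to the error, and calls in that fit do not test it. Without 1C none of the 6 genes passed (0 members called, against 2.58% of all rows), and the same was true without 1B (3.00% of all rows), 2A (2.47%) or 2B (2.51%). Without 1A only Ptbp3 passed, with 3.67% of all rows called. Without 2C all 6 passed among 15 members called, while 24.9% of all rows were called. Of these 15, 10 were lower (9.58% of all rows) and 5 higher (15.3%). With the set as a random block 0 members passed (2.89% of all rows), and with arrays weighted by their quality 0 did (2.34%). With the set as a fixed block 15 passed, 13 lower and 2 higher, against 8.12% and 9.03% of all rows. Without the dye term Lsm12, Ptbp3 and Rbm26 passed, 3 lower against 2.32% of all rows. The same 3 were among 7 members called lower when 1C and 2C were both left out (7.89% of all rows). All 6 genes stayed below 0 in every one of these fits. Turning the columns of 1C and 2C exchanges the transgenic and dye terms of the fit. The 6 genes then took the values of their dye terms, all above 0, and 0 members passed (0.0147% of all rows).

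**Figure D3:**
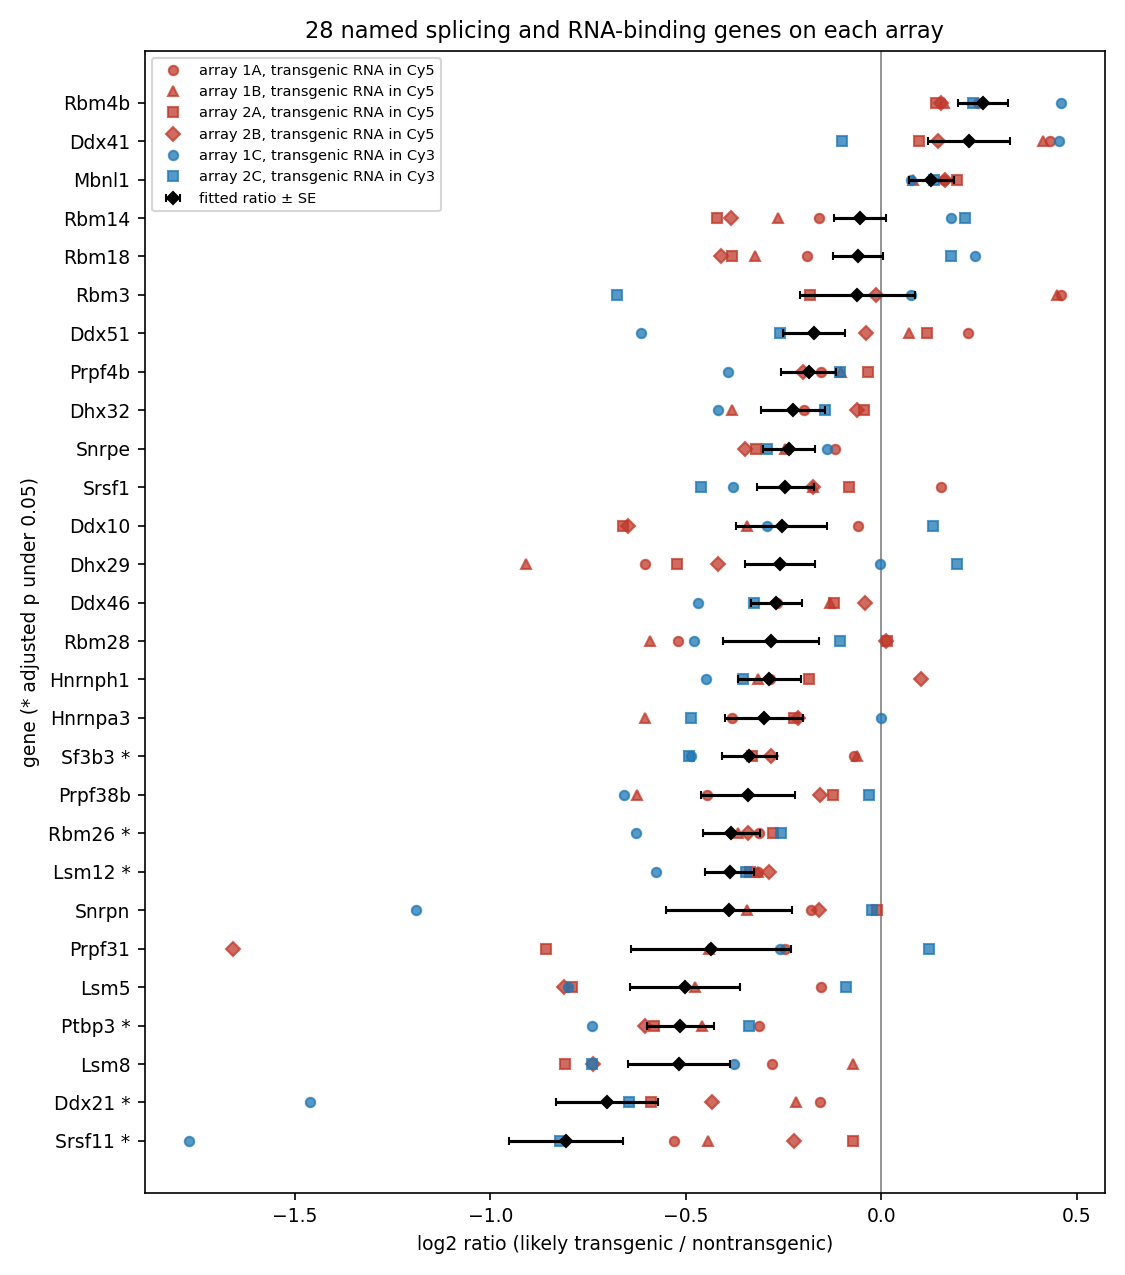
Log2 ratio of 28 named members on each array (coloured points) with the fitted ratio and its SE (black). The 6 starred genes passed the adjusted test and lie below 0 on all 6 arrays. The probe means of Rbm4b and Mbnl1 lie above 0 on all 6, though a single probe of each does not.

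Among the other snRNP and LSm genes, only some of which form the rings around the spliceosomal RNAs, no gene passed the test. Lsm8, of the ring on U6, was -0.28, -0.07, -0.81, -0.74, -0.38 and -0.74 on 1A, 1B, 2A, 2B, 1C and 2C. All values were below 0, with those of set 2 lower. This gave a fitted ratio of -0.52 ± 0.13 (SE; adjusted p 0.0721 by limma). Lsm5, which sits in both the nuclear and the cytoplasmic ring, had -0.50 ± 0.14 (adjusted p 0.0893 by limma) and ranged from -0.81 to -0.09; without 1C it was -0.32. Snrpe, a protein of the Sm ring, lay between -0.35 and -0.12, with a fitted ratio of -0.24. Snrpn, the Sm protein found mainly in brain, had a fitted ratio of -0.39, and its values lay between -0.34 and -0.01 on 5 arrays and at -1.19 on 1C. Without 1C it was -0.099, and without 2C -0.68. Lsm6 had a fitted ratio of -0.48 but ran from -1.11 to 1.07, so its sign was not held across arrays. Snrpb, Snrpa and Lsm10 were the 3 genes of the class above 0, at 0.05, 0.07 and 0.14.

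In the U2 and 3′ splice site class the genes beside Sf3b3 were U2af2, the large subunit of the factor that binds the pyrimidine tract, and Sf3a1, Sf3a2 and Sf3b1. U2af2 had a fitted ratio of -0.46 ± 0.23 (SE; adjusted p 0.249 by limma). It was below 0 on all 6 arrays, but 1B was at -1.72 and the other arrays were between -0.48 and -0.16. Sf3a1, Sf3a2 and Sf3b1 had fitted ratios of -0.16, -0.14 and -0.03.

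The other 2 SR proteins went separate ways. Srsf1, the founding member of the family, was 0.15 on 1A and between -0.46 and -0.08 on the other arrays, with a fitted ratio of -0.25 (adjusted p 0.102 by limma). Srsf3, the smallest SR protein, was above 0 on the 3 arrays of set 1, with 1.57 on 1C, and between -0.27 and -0.09 on those of set 2. Its fitted ratio was 0.36 ± 0.24 (SE) and did not pass the test.

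Of the 8 Prpf genes, which are named for yeast splicing mutants and mostly act in or beside the tri-snRNP, 7 were below 0 and none passed. Prpf31, a tri-snRNP protein, had a fitted ratio of -0.43 ± 0.20 (SE), with -1.66 on 2B and 0.12 on 2C. Prpf38b was below 0 on all arrays, from -0.66 to -0.03, with a fitted ratio of -0.34. It was -0.185 without 1C, -0.60 in set 1 alone and -0.09 in set 2 alone. Prpf4b, a kinase that acts on the spliceosome, was also below 0 on all arrays at -0.19, and at -0.11 without 1C. Prpf8, the large protein at the core of U5, had a fitted ratio of 0.02 ± 0.08 (SE).

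Among the hnRNP genes Hnrnpa3 was below 0 on all arrays, from -0.61 to a value just under 0 on 1C, with a fitted ratio of -0.30, or -0.18 without 2C. Hnrnph1, which binds runs of G, was below 0 on 5 arrays and 0.10 on 2B, with a fitted ratio of -0.29 (adjusted p 0.0910 by limma). Fitted singly, its probes gave -0.32 (adjusted p 0.0375 by limma) and -0.25 (adjusted p 0.246), and on 2B -0.08 and 0.28. Hnrnph2, a close relative of Hnrnph1, was at -0.07. Hnrnpr had the highest fitted ratio of all members, 0.52 ± 0.26 (SE), and this came with a value of 1.90 on 1C and values between -0.11 and 0.35 on the other arrays.

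The Ddx and Dhx helicases were mixed. Ddx46, which acts with U2 at the branch point, was below 0 on all arrays, from -0.47 to -0.04, with a fitted ratio of -0.27 ± 0.07 (SE; adjusted p 0.0667 by limma). Ddx10 and Ddx51, both of ribosome assembly, had fitted ratios of -0.25 and -0.17, with Ddx10 above 0 only on 2C and Ddx51 above 0 on 3 arrays. Without 1C these were -0.15 and -0.084, and without 2C Ddx51 was -0.26. Ddx41 was above 0 on 5 arrays and -0.10 on 2C, with a fitted ratio of 0.22 (adjusted p 0.220 by limma), which was 0.085 without 1C and 0.36 without 2C. Dhx32 was below 0 on all arrays at -0.23, and Dhx29, a helicase of translation initiation, was below 0 on 5 arrays at -0.26.

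Rbm4b, a regulator of alternative splicing, was the only member above 0 at an unadjusted p under 0.05. Its values were 0.25 on 1A, 0.16 on 1B, 0.14 on 2A, 0.15 on 2B, 0.46 on 1C and 0.23 on 2C. All these means of 2 probes were above 0, and 1C was the highest. The fitted ratio was 0.26 ± 0.06 (SE), with an adjusted p of 0.0685 by limma, and its 2 probes gave 0.33 and 0.19. The probe at 0.33 was above 0 on all arrays, while that at 0.19 was -0.15 on 1A and -0.21 on 1B. Mbnl1, the muscleblind protein of exon choice in muscle, was the other member above 0 on all arrays, from 0.08 to 0.19, with a fitted ratio of 0.13. Its probes differed, at 0.30 and -0.04. Rbm28, a nucleolar protein of ribosome assembly, had a fitted ratio of -0.28 with probes at -0.49 and -0.07.

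The 2 sets were compared by a further term in the fit, and 0 members passed that test (0.0% of all rows). Fitted alone, with 3 arrays each, set 1 had 51 members below 0 (68.9%, against 48.0% of all rows) and set 2 had 63 (85.1%, against 53.3%). In both sets 45 members were below 0 and 5 were above, while 6 were below 0 in set 1 only and 18 in set 2 only. Set 1 alone called 8 members lower and 3 higher, with 5.37% and 10.3% of all rows called; the 3 higher were Ddx41, Hnrnpr and Srsf3. Set 2 alone called 10 lower and 0 higher, with 7.52% and 5.81% of all rows called. Of the 6 genes that fell over all arrays, 4 were called in each set alone: Ddx21, Lsm12, Ptbp3 and Srsf11. These genes were chosen from the same 6 arrays, so their calls in the sets are no separate support. Each of these fits left 1 residual degree of freedom, from the difference between the Cy5 arrays of the set. The array in Cy3, 1C or 2C, was fitted exactly and added nothing to the error. Hnrnpr and Srsf3, called higher in set 1, stood at 1.90 and 1.57 on 1C. Rbm26 was called in set 1 only and Sf3b3 in set 2 only, with adjusted p values in the other set of 0.0546 and 0.0737 by limma.

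Rbm3, a cold-inducible RNA-binding protein, had the lowest p for the difference between sets. It was 0.46 on 1A, 0.45 on 1B and 0.08 on 1C, and -0.18 on 2A, -0.01 on 2B and -0.68 on 2C, so the sets did not overlap. Set 2 minus set 1 was -0.62 ± 0.10 (SE), with p 0.00196 and an adjusted p of 0.0724 by limma. For Rbm28 the difference was 0.50 (adjusted p 0.0746) and for Lsm8 -0.52 (adjusted p 0.0868). In 4 members, Rbm3, Srsf3, Ddx24 and Ddx27, every array of 1 set was on the other side of 0 from every array of the other (5.41%, against 7.07% of all rows). For Ddx24 this held for the mean of its probes and for neither probe alone, and for Srsf3 for only 1 of its probes. At an unadjusted p under 0.05, 12 members differed between sets (16.2%, against 23.7% of all rows).

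**Figure D4:**
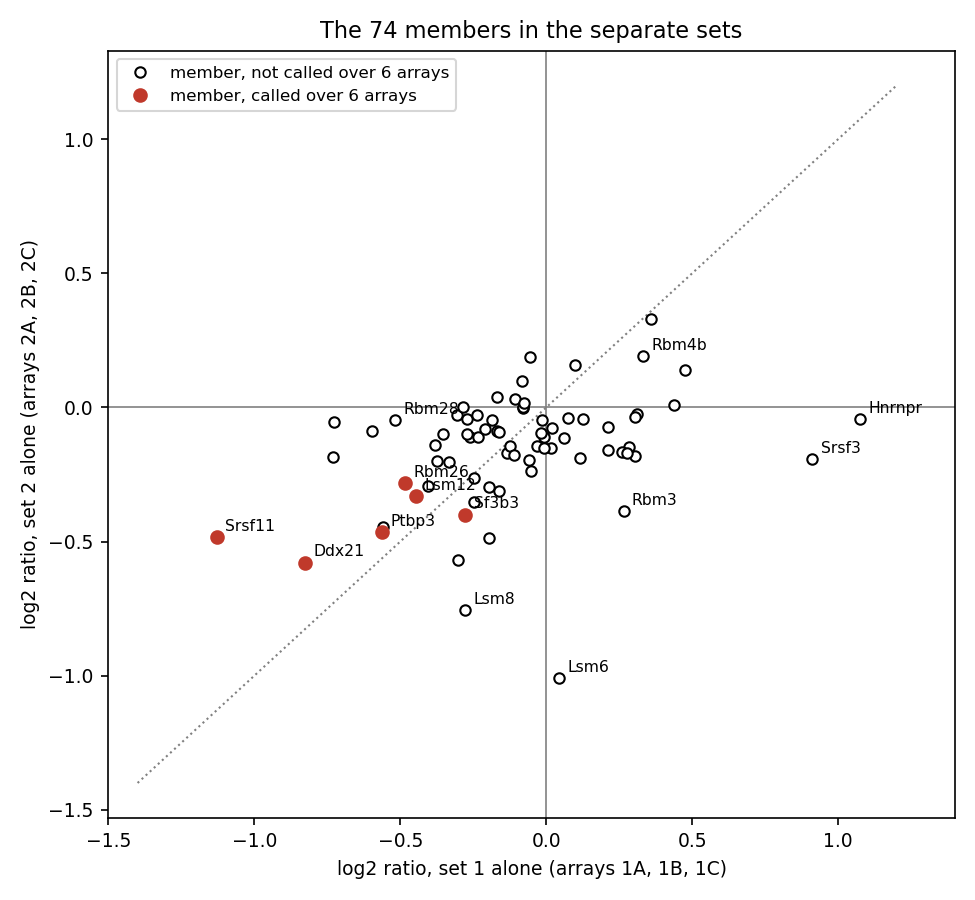
Fitted log2 ratio of each member in set 1 alone (horizontal axis) and set 2 alone (vertical axis). The 6 genes that fell, which were chosen from these same arrays, lie below 0 in both sets. Rbm3 lies above 0 in set 1 (0.27) and below 0 in set 2 (-0.39).

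The dye term was past the adjusted threshold in 0 members (0.0147% of all rows), and in 13 at an unadjusted p under 0.05 (17.6%, against 18.2% of all rows). Of these, 3 were named for the lowest dye p. Rbm18 lay between -0.41 and -0.19 where transgenic RNA carried Cy5 and at 0.24 and 0.18 where it carried Cy3, and its dye term was -0.27 (p 0.0056, adjusted p 0.182 by limma). Rbm14, a coactivator with RNA-binding domains, lay between -0.42 and -0.16 against 0.18 and 0.21 (dye term -0.25, adjusted p 0.188). Dhx29 lay between -0.91 and -0.42 against about 0 and 0.19 (dye term -0.35, adjusted p 0.183). Rbm18 and Rbm14 are means of 3 probes each, and no single probe had the orientations on opposite sides of 0. On 1C the Rbm18 probes were 1.17, -0.15 and -0.30, and the Rbm14 probes 1.24, -0.23 and -0.47. In 9 members every array of 1 orientation was on the other side of 0 from every array of the other (12.2%, against 10.3% of all rows).

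Over the 74 members the ratios of 2A and 2B correlated with r = 0.79, those of 1A and 1B with 0.44 and those of 1C and 2C with 0.25. Between orientations r ran from -0.24 to 0.25. These are descriptions over genes of the same arrays, and genes are not independent replicates.

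The probes of 1 gene could be compared for 25 members with at least 2 tested probes. In 15 of these all lay on 1 side of 0, 11 below and 4 above, and in 10 they lay on both. The median gap between the lowest and highest probe of a gene was 0.20, and 16 genes had a gap under 0.25. The widest was that of Hnrnpl, at -0.40 and 0.51, followed by Rbm18 with a gap of 0.73, Rbm14 with 0.67 and Ddx5 with 0.53. The gap was thus often as large as the ratio itself, and of the 6 genes that fell only Sf3b3 had a second probe. Related genes such as Hnrnph1 and Hnrnph2, Snrpn and Snrpb or Rbm4b and Rbm4 are alike in sequence, and cross-hybridisation was not tested.

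**Figure D5:**
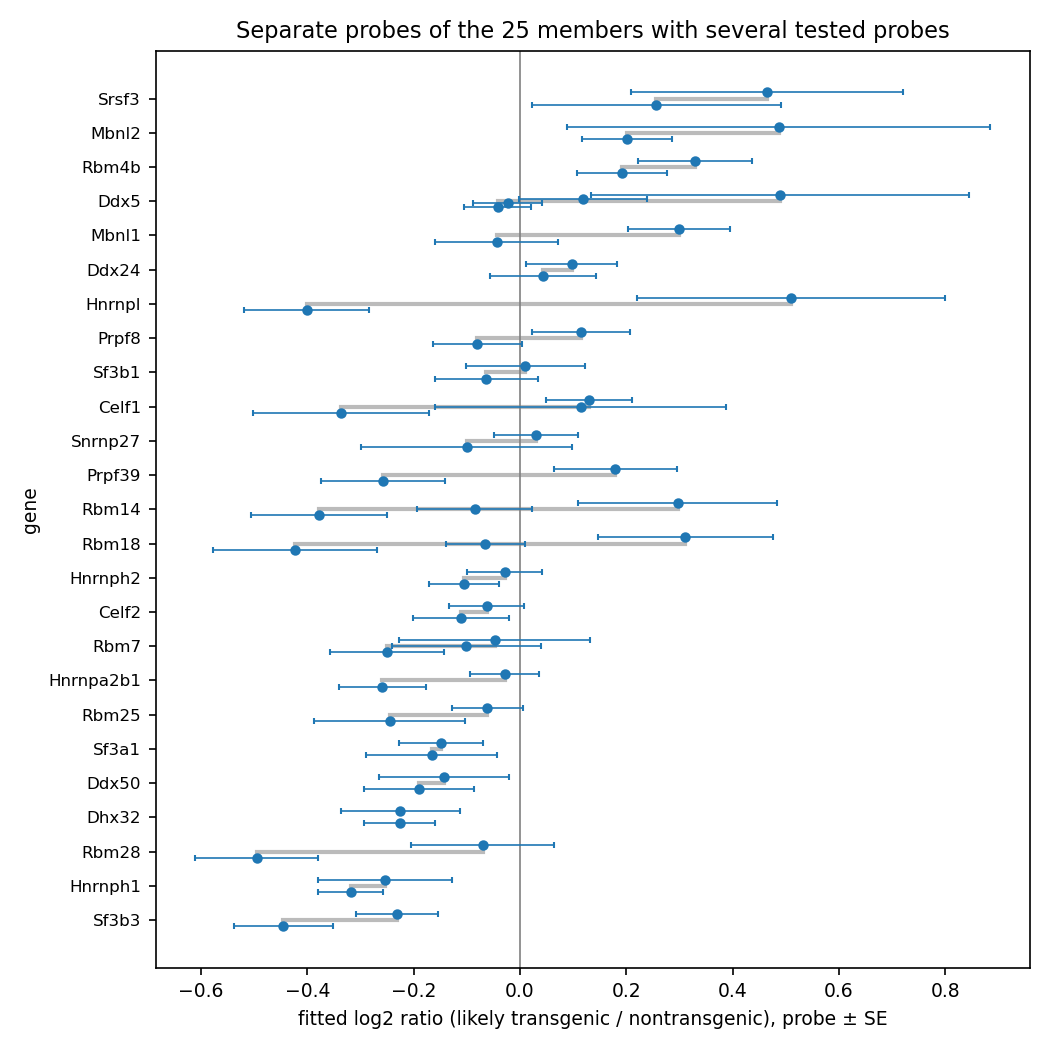
Fitted log2 ratio of each single probe of the 25 members with at least 2 tested probes, 1 line per gene. In 15 genes all probes lie on 1 side of 0; the widest gap is that of Hnrnpl, from -0.40 to 0.51.

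Other splicing and RNA-binding genes, outside the name rule, lay about 0. Of 109 listed, 53 were measured, their median was -0.02 and 29 were below 0, against 49.7% of all rows. Of the 53, 3 fell and 1 rose, against 3.09% and 4.03% of all rows. Those that fell were Tardbp (TDP-43, which represses cryptic exons) at -0.31, Fxr2 (a relative of the fragile X protein) at -0.30 and Syncrip (hnRNP Q) at -0.26. Fmr1, the fragile X protein itself and a repressor of translation, rose by 0.63 ± 0.07 (SE; adjusted p 0.00853 by limma).

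Of 19 proliferation genes measured, 6 fell (Ccnd1, Ccnd2, Mad2l1, Mcm2, Mcm4 and Mcm5) and 0 rose, against 3.09% and 4.03% of all rows. The other 13 did not pass, and E2f1 (0.51), Birc5 (0.08) and Tk1 (0.16) lay above 0. The list median was -0.31, with array medians between -0.48 and -0.03. Of the 4 smooth muscle markers measured Cnn1 rose by 0.59, while Cald1 (-0.12), Tpm1 (-0.16) and Smtn (-0.05) lay below 0 and did not pass, and the list median was -0.09. Of 6 fibroblast markers Mfap5 and Thy1 rose, with a list median of 0.76, but Col1a1 lay at -1.21 (adjusted p 0.0752 by limma) and Pdgfra at -0.02. Of 4 Schwann and neural markers L1cam and Uchl1 fell, with a median of -0.46, while Ngfr (-0.71) and Mbp (0.05) did not pass. Cdh1 rose among 4 epithelial markers, while Krt7 (0.19), Krt19 (0.06) and Scgb1a1 (0.07) did not pass. Krt7 and Scgb1a1 were below 0 on 1A, 1B, 2A and 2B and above 0 on 1C and 2C. Col11a1 fell among 5 cartilage markers, while Acan (-0.29), Comp (-0.25), Sox9 (-0.01) and Col9a1 (0.16) did not pass. None of the 4 endothelial (median -0.52) or 5 macrophage and leukocyte markers passed. The part of these in the members' ratios was not tested. Ratios carry no level, so the presence of any marker could not be checked, and fewer cells of a type cannot be told apart from less RNA per cell. No probe of the receptor gene was used here, so the labels were not checked against the transgene.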

How the data were processed

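The deposited table holds the authors' log2 ratios, 1 per probe and array, for 8734 probes and 6 arrays of 2 colours. How the arrays were scanned, background corrected and normalized, and which way the ratio runs, is not given in the sources used here. Each array was already centred near 0, and no further normalization was applied. Spot intensities were not used here, so precision rests on the number of arrays.

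Gene symbols came from the platform annotation, where 7540 probes had 1 symbol, 14 several and 1180 none. Probes that share a symbol were averaged per array, and a row needed values on 4 arrays or more, in both orientations (6807 rows). limma 3.58.1 in R 4.3.3 fitted a transgenic and a dye coefficient (lmFit, eBayes), with Benjamini-Hochberg adjustment over all rows. Members were named in order: all with adjusted p under 0.05, the next by p to 25, the lowest p of each role class, and 3 each for dye and set. U2af2, Srsf3, Hnrnpr and the other members outside that order were chosen after their values were seen. On simulated data, 44 of 100 changes of 0.5 and 84 of 100 changes of 1 were called, with 5 unchanged rows. The simulated noise was independent and of equal spread on every array, without dye or set effects. The real arrays differ in this, so these shares may not hold for them. Shared set numbers were not taken as pairs. Members and lists were chosen with earlier results of these data known. Promoters came from RefSeq (GRCm38.p6), and other steps used Python 3.11.15, pandas 2.3.3 and numpy 2.4.6.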

Additional observations from a re-analysis of the deposited data

Results flagged for a closer look

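In 12 of the 74 members 1 array stood away from the other 5, by a gap, as a share of the range, above Dixon's critical value for 6 arrays: array 1C in 8, 1B in 3 and 1A in 1. Chance marks about 1 in 20 groups in this way where all arrays spread alike, but array 1C had the widest spread of ratios over all probes. The share over all rows is not given here, so the 12 are not read as a trait of the members. On 1C, Lsm12 was -0.58 with the others between -0.35 and -0.29, Rbm26 -0.63 with the others between -0.37 and -0.26, and Snrpn -1.19 with the others between -0.34 and -0.01. Rbm4b was 0.46 on 1C, with the others between 0.14 and 0.25. Hnrnpr was 1.90 there, with the others between -0.11 and 0.35, and Srsf3 was 1.57, with the others between -0.26 and 0.26. Ddx5 was 0.81 on 1C, with the others between -0.30 and 0.06, and Hnrnpl was 0.76, with the others between -0.23 and -0.07. Both are means of probes that differed widely on 1C. For Ddx5 these were 2.83, 0.66, -0.11 and -0.16, and for Hnrnpl 2.14 and -0.63. On 1B, U2af2 was -1.72 with the others between -0.48 and -0.16, Rbm12b1 1.73 with the others between -0.10 and 0.57, and Rbm7 -0.69 with the others between -0.18 and 0.10. Prpf8 was 0.37 on 1A, with the others between -0.10 and 0.03.

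In 4 members every array of set 1 lay on the other side of 0 from every array of set 2. For Ddx24 this held only for the mean of its probes, as 1 was -0.21 on 1A and the other 0.09 on 2A. Set 2 minus set 1 was -0.62 for Rbm3 (p 0.00196, adjusted p 0.0724 by limma), -0.86 for Srsf3 (adjusted p 0.216), -0.27 for Ddx24 (adjusted p 0.149) and 0.25 for Ddx27 (adjusted p 0.214), so none of the 4 differences passed the adjusted threshold.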

How the results depend on the processing

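The median of the members stayed below 0 under every setting tried but 1, and the number that passed the threshold did not hold. Row totals in this section are for the transgenic term, and counts for dye or set are given without their share over all rows. Leaving out 1 array at a time gave 0 to 15 members called, 0 to 10 lower and 0 to 5 higher. Calls over all rows ran from 168 to 1687. The member median ran from -0.13 to -0.10, members called for the dye from 0 to 8 and for the set difference from 0 to 0. A random replicate block for the set (correlation 0.295) left 0 members called, 0 of them lower, and 197 rows in all; with the set as a fixed replicate block, 15 members were called, 13 lower and 2 higher, among 1168 rows. The dye-balanced mean of each set (n = 2) called 0 members, 0 lower, and 0 rows in all, which leaves 1 residual degree of freedom. Without the dye term 3 members were called, all 3 lower (Lsm12, Ptbp3 and Rbm26), and Rbm3 turned to 0.019. The 4 arrays with transgenic RNA in Cy5 called 1049 rows, with Rbm3 at 0.18 and Ddx51 at 0.092. Array weights called 0 members, 0 lower, 159 rows in all and 3 members for the set difference. Set 1 alone, chosen after seeing the data, called 11 members, 3 of them higher, among 1057 rows, with Rbm3 at 0.27; set 2 alone, also chosen then, called 10 members, 10 lower, among 907 rows, and 1 member for the dye. At an adjusted p under 0.01, 0 members were called, 0 lower, among 95 rows; at 0.10, 12 were called, 11 lower and 1 higher, among 1021 rows, with 4 for the set difference.

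The setting that moved the median across 0 was the sign of the columns of 1C and 2C. Turning both only exchanges the transgenic and dye terms of the main fit, so the values given for it are the dye terms already fitted. With both turned, 0 members were called, 0 lower, with 1 row in all, and the member median was 0.035. The 6 members then called for the dye are the 6 genes that fell. Of the genes that fell, Srsf11 was then 0.49, Ddx21 0.35, Sf3b3 0.15, Lsm12 0.074, Rbm26 0.059 and Ptbp3 0.025. Also turned were Ddx51 at 0.27, Rbm3 at 0.24, Snrpn at 0.22, Srsf1 at 0.18, Ddx46 at 0.13, Hnrnph1 at 0.12, Prpf4b at 0.064, Dhx32 at 0.054, Lsm8 at 0.042, Rbm28 at 0.010, Prpf38b at 0.0034 and Rbm4b at -0.086. Elsewhere signs turned for Rbm3 with 1 array left out (-0.25 to 0.13, the latter without replicate 2C) and for single probes of Mbnl1 (-0.044), Rbm18 (0.31) and Rbm14 (0.30). Under these settings 682 values of named members were compared. Of these, 562 kept direction and side of the threshold, 63 lost the call, 31 gained one and 26 turned. The 26 include the signs exchanged with the dye term. The same 6 genes were called with the lowest values set to missing, quantile normalization, other minimum numbers of arrays and a robust prior, and 5 of them (not Sf3b3) with columns scaled to equal spread. The causes were not tested. Ratios of dim and bright spots could not be told apart here.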
